A study of Homo sapiens with 9 samples.

Results

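The comparison sets U87 cells carrying either of 2 mutant forms of isocitrate dehydrogenase 1 (IDH1) against U87 cells carrying the vector alone, and asks which transcripts changed in the same direction with or without the C269S change. It uses all 9 of the 9 libraries in the series. U87 is an established human glioblastoma line. The vector group, named PCDH after the plasmid, had 3 libraries, the group with the R132H mutant (IDH1mt) had 3, and the group with the same mutant plus the C269S change of a cysteine to serine (IDH1mt C269S, shortened to C269S) had 3. All cells overexpressed their construct stably and grew in DMEM with fetal bovine serum. Both mutant groups share the R132H change and raised IDH1, and no group carried introduced IDH1 without R132H, so these cannot be told apart here. The labels leave unsaid how many selected lines stood behind each construct and whether a group's libraries began as separate cultures. P-values here therefore measure only library-to-library spread, which may be technical, and the construct and the selected line cannot be told apart. Libraries are named by group and number, so that PCDH 3 is replicate 3 of the vector group.

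IDH1 is the cytosolic enzyme that oxidises isocitrate to 2-oxoglutarate while making NADPH. The R132H form, common in lower-grade gliomas, instead reduces 2-oxoglutarate to 2-hydroxyglutarate, which competes with 2-oxoglutarate in dioxygenases that hydroxylate collagen, demethylate histones and DNA, and mark hypoxia-inducible factors for breakdown. Palmitoylation attaches a fatty acid to the thiol of a cysteine, and serine has no thiol. The study concerns palmitoylation that the R132H enzyme performs on itself, so the C269S change separates the mutant groups while R132H joins them.

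Both changed codons lie in the coding sequence of IDH1, and the reference bases around them show what the constructs altered. They are given from the GENCODE annotation on GRCh38, on the minus strand of chromosome 2, written 5′ to 3′ along the transcript, with the codon in capitals. The codon of R132H is in exon 4 (chr2:208248387-208248389) and that of C269S in exon 7 (chr2:208242037-208242039). The counts do not show which allele a read came from.
Reference codon of R132H: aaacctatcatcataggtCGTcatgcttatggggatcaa
Reference codon of C269S: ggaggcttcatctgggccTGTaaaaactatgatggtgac

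Libraries held 19108925 to 24803711 counts. Of 58735 genes in the table, 16874 passed the filter on low counts. Levels below are in CPM, counts as a share of each library's total after edgeR's TMM method (a trimmed mean of log ratios between libraries) had scaled the totals. PCDH 3 stood apart from the other vector libraries: a chi-square statistic of the counts, per gene, was 10.2 and 10.9 against PCDH 1 and PCDH 2, beside 5.21 between those and 3.69 to 6.36 within the mutant groups. For many gene lists the count without it is given beside the count with all libraries. Of the astrocyte markers, AQP4 had no count in any library and GFAP lay between 2.84 and 4.34 CPM, while the 8 astrocyte markers together summed to 536 to 593 CPM in PCDH and 548 to 669 CPM in the mutants, so other members of the list were expressed. The microglial marker TYROBP had no count, and the 9 markers of microglia and macrophages summed to 8.78 to 11.6 CPM in PCDH and 11.4 to 19 CPM in the mutants. The part of such cells in the results was not tested. The share of counts from the mitochondrial genome was 3.15 ± 0.220% in PCDH (SD, n = 3) and 3.52 ± 0.277% in the mutants (SD, n = 6), a difference that missed the threshold (exact two-sided permutation p = 0.167, where the smallest possible is 0.0238). By mutant, the share was 3.77 ± 0.0437% in IDH1mt, above every vector library, and 3.27 ± 0.0838% in C269S, within their range (SD, n = 3 each).

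The IDH1 transcript (ENSG00000138413, chr2:208236227-208266074) was far higher in every mutant library. It stood at 112, 102 and 118 CPM in PCDH, 660.2, 678 and 693 in IDH1mt, and 773, 724 and 718 in C269S. The mean of both mutants was 6.40-fold above PCDH (log2 fold change 2.68, SE 0.05, edgeR adjusted p = 6.3e-26), and an exact two-sided permutation test of the 6 mutant against the 3 vector libraries gave p = 0.0238, the smallest possible. Between the mutants IDH1 differed by 1.09-fold, with a 95% interval of the log2 difference from 0.01 to 0.24. That interval lies within 0.32 either way, the bound used below for like levels, so the level of the transcript in the mutants agreed within it. The gene count covers introduced and own transcripts together.

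Changes shared by both mutants were asked for in 2 ways in a single edgeR fit. In the first, the mean of both mutants was compared with PCDH. A gene was called at a Benjamini-Hochberg adjusted p under 0.05 over all genes tested, and 1491 of 16874 genes (8.84%) were called, 801 higher (4.75%) and 690 lower (4.09%). Only 67 of these were over 2-fold higher and 26 over 2-fold lower. The split depends on scaling: 53.7% of called genes were higher with TMM and 37.8% with library size alone, while the median log2 fold change of all genes was -0.01 with TMM and -0.05 with library size alone. When the 6 mutant libraries were fitted as 1 group, so that their differences entered the spread, 371 genes were higher and 251 lower.

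The second way asked for a change in each mutant, taking the larger of the p-values of IDH1mt against PCDH and C269S against PCDH where both had the same sign. This called 183 genes (1.08%), 117 higher in both mutants (0.693%) and 66 lower in both (0.391%). With library size alone 54.1% of the called genes were higher, against 63.9% with TMM. Both comparisons use the same vector libraries, so a high or low PCDH library moves them together. In 182 of the 183 genes the 6 mutant libraries did not overlap the 3 PCDH libraries, beside 1507 of all genes (8.93%). The calls were made from these same libraries, so the lack of overlap among called genes adds no evidence. The gene that did overlap, chosen after its values were seen, was the noncoding RNA FLJ22447.

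The 183 genes were 76.6% of the 239 genes called in C269S against PCDH (1.42% of genes) and 7.71% of the 2375 called in IDH1mt against PCDH (14.1%). Of the 1308 genes called in the mean but not in both mutants, 1211 were called in IDH1mt, 48 in C269S and 83 in neither, so a call in the mean mostly followed IDH1mt. These counts overlap, since some genes were called in each mutant by its own adjusted p. Such genes missed the shared call because the larger p is adjusted anew over all genes. No gene was called in opposite directions in the mutants by edgeR, DESeq2 or limma-voom, and 23, 22 and 26 genes went opposite ways at unadjusted p under 0.05 in both comparisons.

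The shared changes were modest. The median change of the mean was 1.42-fold among the 117 higher genes and 1.44-fold among the 66 lower genes, and 15 and 4 of them passed 2-fold. A test against a change of 1.5-fold in each mutant left 4 genes: IDH1, PI3, CD24 and the noncoding RNA AL118508.1. The number of shared calls varied with the libraries. Without PCDH 3 it was 536 (338 higher and 198 lower, with 176 of the 183 among them). It was 105 and 96 without PCDH 1 or PCDH 2, 90 and 93 without C269S 1 or C269S 2, 175 without C269S 3, and 126 to 148 without an IDH1mt library. Besides IDH1, 65 of the other 182 genes kept the shared call without each of the 9 libraries, and genes that did not are named as such beside their values.

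**Figure D1:**
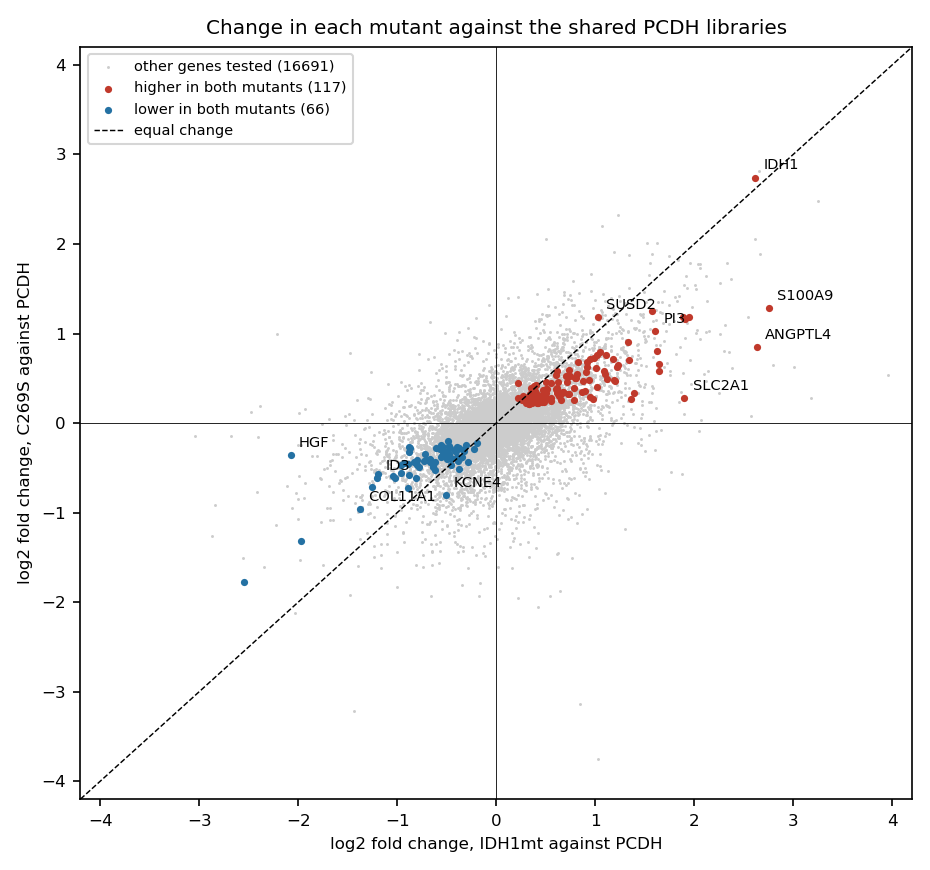
Log2 fold change of C269S against PCDH (vertical) plotted against that of IDH1mt against PCDH (horizontal) for the 16874 genes tested; red and blue points are the 117 genes higher and 66 lower in both mutants, grey points the others, and the dashed line marks equal change. Most coloured points lie between the horizontal axis and the dashed line, and since both axes share the PCDH libraries the slant of the grey cloud is not a result.

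PI3 and S100A9, small secreted proteins, were among the 14 genes named for their rises. TFPI2 and SERPIND1, given beside them, were not. PI3 encodes elafin, an inhibitor of neutrophil elastase (ENSG00000124102, chr20:45174876-45176544), and stood at 1425, 1369 and 1336 CPM in PCDH, 4273, 4199.9 and 4082 in IDH1mt, and 2682, 2739 and 3009.9 in C269S. All 6 mutant libraries lay well above the vector libraries, with IDH1mt highest. PI3 rose 2.49-fold in the mean (log2 fold change 1.32, SE 0.04, adjusted p = 1.4e-19), 3.04-fold in IDH1mt and 2.04-fold in C269S. S100A9, a calcium-binding protein secreted by myeloid cells as an alarm signal (ENSG00000163220, chr1:153357854-153361027), stood at 1.57, 1.43 and 1.64 CPM in PCDH, 9.97, 8.85 and 12.6 in IDH1mt, and 2.65, 4.31 and 4.32 in C269S. It rose 4.04-fold (log2 fold change 2.02, SE 0.20, adjusted p = 1.7e-08) from a low level, and C269S 1 was the lowest of the mutant libraries. TFPI2, a Kunitz-type inhibitor of plasmin and other serine proteases, was abundant and rose 1.33-fold in IDH1mt and 1.17-fold in C269S (adjusted p of the mean 3e-06). SERPIND1, heparin cofactor II, which inhibits thrombin, rose 1.85-fold (adjusted p = 8.3e-07).

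Of 19 tested protease inhibitors and S100 proteins, 7 rose in the mean and none fell, and 3 were higher in both mutants (PI3, S100A9 and TFPI2). Of all genes tested, 4.75% rose and 4.09% fell in the mean, and 0.693% were higher and 0.391% lower in both. These shares are the background of every list count below. The list median was 0.10 on the log2 scale in the mean, beside -0.01 for all genes. TFPI2 lost its shared call without PCDH 1, PCDH 2, C269S 1 or C269S 2 (adjusted p from 0.074 to 0.14), while PI3, S100A9 and SERPIND1 kept theirs without each single library. SERPIND1 is not on the list.

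CD24, SUSD2 and PODXL encode surface proteins and FCRLA a relative of Fc receptors, a grouping made after the values were seen. PODXL was not among the 14 genes named for their rises. CD24, a small glycosylphosphatidylinositol-anchored glycoprotein used as a marker of progenitor cells (ENSG00000272398, chr6:106969831-106975627), stood at 6.93, 6.32 and 6.43 CPM in PCDH, 25.5, 23.6 and 24.8 in IDH1mt, and 14.5, 15.2 and 14.2 in C269S. It rose 2.90-fold (log2 fold change 1.53, SE 0.10, adjusted p = 2.1e-12), and its 3 C269S libraries lay between the other groups. CD24 has near-identical copies elsewhere in the genome, so its count is uncertain. SUSD2, a sushi-domain membrane protein, stood at 3.74, 2.66 and 3.86 CPM in PCDH, 7.49, 6.30 and 7.02 in IDH1mt, and 6.99, 7.80 and 8.45 in C269S. Its rise of 2.15-fold (log2 fold change 1.10, SE 0.16, adjusted p = 1.3e-05) was of like size in the mutants, 2.03-fold in IDH1mt and 2.27-fold in C269S, though the log2 difference (0.16, 95% interval -0.18 to 0.50) was not pinned down. FCRLA, an Fc receptor-like protein, rose 2.03-fold (log2 fold change 1.02, SE 0.11, adjusted p = 1.4e-07), and PODXL, a sialomucin that keeps cell surfaces apart, rose from 209, 183 and 196 CPM in PCDH to 376, 386 and 399.8 in IDH1mt and 332, 316 and 320.1 in C269S, 1.81-fold in the mean (adjusted p = 1e-13).

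The other genes named for their rises were CDA, PRSS35, MYH15 and DENND2A. CDA, cytidine deaminase of the pyrimidine salvage pathway, stood at 4.47, 4.30 and 3.77 CPM in PCDH, 12.9, 12.1 and 13.7 in IDH1mt, and 6.69, 7.55 and 7.72 in C269S, and rose 2.32-fold (adjusted p = 1.2e-07). PRSS35, a protein of the trypsin family, stood at 5.70, 6.83 and 5.63 CPM in PCDH, 18.6, 19.2 and 19 in IDH1mt, and 9.95, 8.46 and 10.4 in C269S, and rose 2.22-fold (adjusted p = 2.6e-08). MYH15, a myosin heavy chain, rose 2.17-fold (adjusted p = 1.9e-11), 3.12-fold in IDH1mt and 1.5-fold in C269S. In these 3 genes IDH1mt lay above C269S. That no mutant library overlapped a vector library was required by the naming rule. DENND2A, an exchange factor for Rab proteins, stood at 1.82, 2.15 and 2.04 CPM in PCDH, 4.46, 5.47 and 5.20 in IDH1mt, and 2.96, 4.25 and 4.04 in C269S, and rose 2.17-fold (adjusted p = 0.00024). It lost its shared call without PCDH 1, PCDH 2, IDH1mt 1, IDH1mt 2, IDH1mt 3, C269S 2 or C269S 3 (adjusted p from 0.054 to 0.24).

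**Figure D2:**
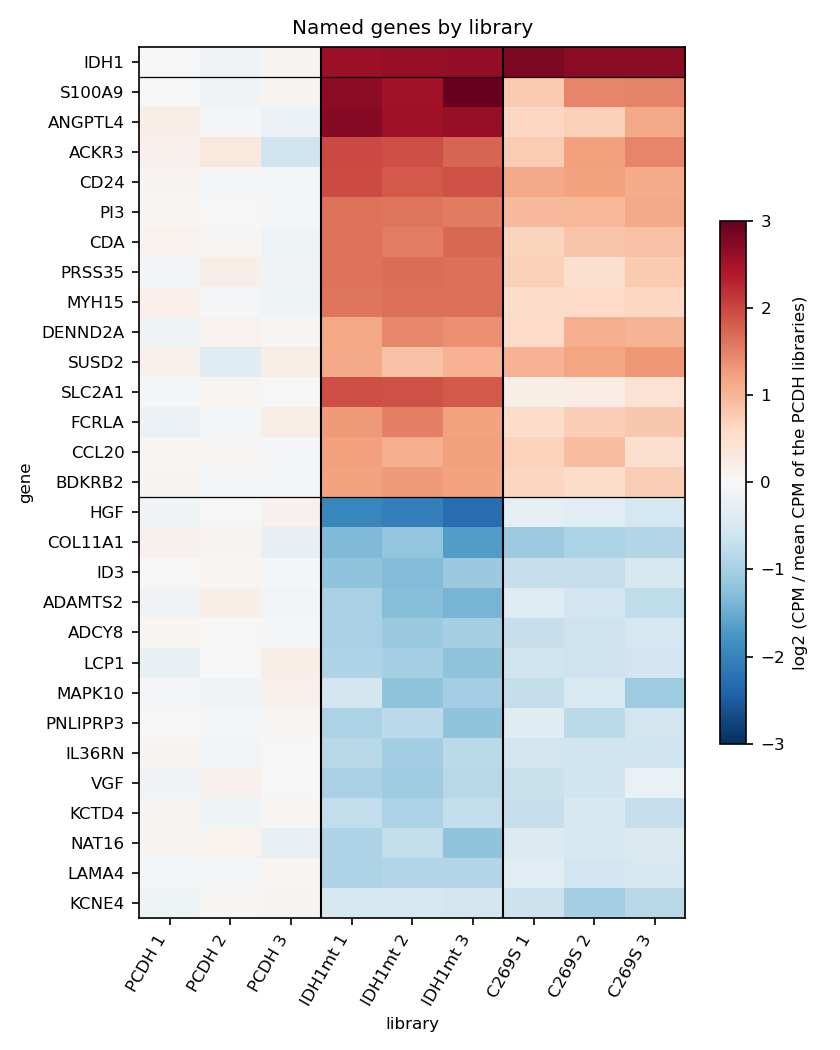
Log2 ratio of the CPM in each of the 9 libraries (columns) to the mean CPM of the PCDH libraries for IDH1, the 14 genes named for their rises and the 14 named for their falls (rows); red is higher and blue lower. Mutant libraries are coloured one way in each row, which the naming rule required of the rises and falls. For most genes, such as ANGPTL4 and HGF, the C269S columns are paler than the IDH1mt columns.

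With all libraries, cytokines and chemokines were the list with the largest share of members higher in both mutants. Of 18 tested, 10 rose and 2 fell in the mean, and 8 were higher and 1 lower in both, where the background was 0.693% higher and 0.391% lower. The higher ones were the interleukin-6 family members IL11 and IL6, the colony-stimulating factors CSF1 and CSF3, the chemokines CXCL8, CXCL3 and CCL20, and the scavenger receptor ACKR3. The list median was 0.22 in the mean, 0.23 in IDH1mt and 0.24 in C269S. The count higher in both was 4 without PCDH 2, C269S 1 or C269S 2, and 1 gene fell in the mean without PCDH 1.

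IL11, which signals through gp130 and is induced by TGF-beta in stromal cells (ENSG00000095752, chr19:55364389-55370463), stood at 413, 469 and 422 CPM in PCDH, 853, 915 and 924 in IDH1mt, and 791, 715 and 753 in C269S. Every mutant library was well above every vector library. IL11 rose 1.89-fold (log2 fold change 0.92, SE 0.05, adjusted p = 2.4e-14), 2.06-fold in IDH1mt and 1.73-fold in C269S, and between the mutants the log2 difference was -0.25, 95% interval -0.37 to -0.14 (adjusted p = 0.0042). CCL20, the chemokine ligand of CCR6, stood at 12.7, 12.9 and 12 CPM in PCDH, 29.2, 26.6 and 29.6 in IDH1mt, and 20.4, 23.8 and 17.4 in C269S, and rose 1.93-fold (log2 fold change 0.95, SE 0.10, adjusted p = 3.5e-08). CSF3, granulocyte colony-stimulating factor, was much more abundant, at 3157, 3004 and 3133 CPM in PCDH, 3663, 3682 and 3824 in IDH1mt, and 3736, 3540.1 and 3806 in C269S. Its rise was small but of nearly the same size in each mutant, 1.20-fold in IDH1mt and 1.19-fold in C269S (adjusted p of the mean 4.5e-05).

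CXCL8, a chemokine for neutrophils, stood at 4386, 3928 and 4872 CPM in PCDH, 6210.4, 6211 and 5725 in IDH1mt, and 5631, 5672 and 4975 in C269S. C269S 3 lay close to PCDH 3, and the mean rose 1.30-fold (adjusted p = 8.1e-05). IL6 rose 1.37-fold (adjusted p = 2.9e-08), CXCL3 1.27-fold and CSF1 1.22-fold. ACKR3, which removes CXCL12 from the surroundings, was low, at 1.47, 1.69 and 0.887 CPM in PCDH, 5.30, 5.15 and 4.56 in IDH1mt, and 2.30, 3.19 and 3.72 in C269S, and rose 2.90-fold (log2 fold change 1.54, SE 0.23, adjusted p = 2.9e-05). CXCL1 ran against its relatives CXCL8 and CXCL3, standing at 115, 100.2 and 112 CPM in PCDH, 58.5, 58.7 and 60.2 in IDH1mt, and 87.6, 87 and 86.5 in C269S, and fell 1.52-fold (adjusted p = 3.3e-09). The shared call was lost for CXCL8 without PCDH 1, PCDH 2, C269S 1 or C269S 2 (adjusted p from 0.082 to 0.12), for IL6 without PCDH 2, C269S 1 or C269S 2 (adjusted p from 0.067 to 0.082), for CXCL3 without PCDH 1, PCDH 2, IDH1mt 1, IDH1mt 2, IDH1mt 3, C269S 1 or C269S 2 (adjusted p from 0.066 to 0.35), for CSF1 without PCDH 2, IDH1mt 1, IDH1mt 3, C269S 1 or C269S 3 (adjusted p from 0.057 to 0.17), for ACKR3 without C269S 2 or C269S 3 (adjusted p from 0.074 to 0.1), and for CXCL1 without PCDH 1 (adjusted p = 0.064). IL11, CCL20 and CSF3 kept theirs without each single library. PTGS2, the inducible cyclooxygenase that starts prostaglandin synthesis, also rose, 1.32-fold in IDH1mt and 1.35-fold in C269S, and was the only one of 19 NF-kB subunits and feedback genes called in both mutants. In that list 2 rose and 3 fell in the mean (5 fell without PCDH 3), with a median of -0.01.

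The list of ERK feedback genes holds genes switched on by the RAS to ERK kinase cascade, some of which, such as DUSP6, restrain it. It also holds the cytokine LIF, so a count of its members is not a count of inhibitors. Of 20 tested, 10 rose and 1 fell in the mean (background 4.75% and 4.09%), and 6 were higher and none lower in both mutants (background 0.693% and 0.391%). The list median was 0.21 in the mean and 0.22 in each mutant. DUSP6, the cytosolic phosphatase of ERK (ENSG00000139318, chr12:89347232-89353271), stood at 90.5, 88.2 and 97.1 CPM in PCDH, 176, 166 and 178 in IDH1mt, and 146, 148 and 148 in C269S. The C269S libraries were within a few CPM of each other, and all 6 mutant libraries were above all vector libraries. DUSP6 rose 1.74-fold (log2 fold change 0.80, SE 0.05, adjusted p = 2e-12). DUSP5, the nuclear phosphatase of ERK, stood at 53.5, 54.0 and 59.4 CPM in PCDH, 86.6, 77.0 and 80.7 in IDH1mt, and 81.9, 71.5 and 73.5 in C269S, and rose 1.46-fold in IDH1mt and 1.36-fold in C269S (adjusted p of the mean 2.4e-06). ERRFI1, an inhibitor of the EGF receptor, stood at 246, 246 and 267 CPM in PCDH, 691, 653 and 641 in IDH1mt, and 335, 318 and 307 in C269S. It rose 2.62-fold in IDH1mt and 1.26-fold in C269S, and this difference between the mutants was among those with the lowest p (log2 difference -1.05, 95% interval -1.16 to -0.94).

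SPRY4, a Sprouty inhibitor of receptor tyrosine kinase signalling, rose 1.34-fold (adjusted p = 0.0001), IER3 1.23-fold (adjusted p = 7.9e-05) and the cytokine LIF 1.20-fold (adjusted p = 0.00024). Their shared calls were lost for SPRY4 without C269S 3 (adjusted p = 0.085), for IER3 without PCDH 1, PCDH 2, IDH1mt 1, IDH1mt 3, C269S 1 or C269S 3 (adjusted p from 0.053 to 0.2), and for LIF without PCDH 1, IDH1mt 1, IDH1mt 3, C269S 1, C269S 2 or C269S 3 (adjusted p from 0.053 to 0.11), so that the shared count was 3 without C269S 3. Among 19 immediate early genes, 4 rose and 2 fell in the mean (2 rose without PCDH 1 or IDH1mt 3, 1 to 4 fell with 1 library left out, and 2 rose and 4 fell with library size alone) and only KLF2, a zinc finger transcription factor induced by shear stress, was higher in both. KLF2 stood at 18.3, 21.7 and 19 CPM in PCDH, 29.3, 26.1 and 28.6 in IDH1mt, and 27.7, 24.5 and 28.9 in C269S, 1.42-fold in IDH1mt and 1.37-fold in C269S. It lost the shared call without PCDH 1, C269S 1 or C269S 3 (adjusted p from 0.061 to 0.088). Without PCDH 3, 2 were higher and 1 lower in both.

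Growth factors and their receptors went both ways. Of 30 tested, 10 rose and 3 fell in the mean (background 4.75% and 4.09%). In both mutants 3 were higher and 1 lower (background 0.693% and 0.391%), with 6 higher without PCDH 3. TGFA, a ligand of the EGF receptor, stood at 112, 116 and 139 CPM in PCDH, 276, 266 and 292 in IDH1mt, and 173, 179 and 159 in C269S, and rose 1.78-fold (log2 fold change 0.83, SE 0.06, adjusted p = 2.7e-11). FGF2, the basic fibroblast growth factor, stood at 446, 455 and 480.5 CPM in PCDH, 874, 829.6 and 819 in IDH1mt, and 625, 614 and 519 in C269S, and rose 1.52-fold (adjusted p = 6.5e-10). For both ligands the C269S libraries lay between the other groups. PDGFRA, a receptor often amplified in glioblastoma, was low, at 5.01, 7.97 and 7.28 CPM in PCDH, 16, 16.7 and 14.8 in IDH1mt, and 9.95, 11 and 10.4 in C269S, and rose 1.90-fold (adjusted p = 6.2e-06). HGF, hepatocyte growth factor, which binds MET (ENSG00000019991, chr7:81699008-81770438), stood at 75.1, 80.9 and 90.0 CPM in PCDH, 21.3, 19.9 and 16.9 in IDH1mt, and 68.6, 66.2 and 56.8 in C269S. The fall was steep in IDH1mt and shallow in C269S, 4.22-fold in IDH1mt and 1.29-fold in C269S, with a log2 difference between the mutants of 1.72, 95% interval 1.53 to 1.90 (adjusted p = 1.3e-14). PDGFRA lost its shared call without PCDH 1, C269S 1, C269S 2 or C269S 3 (adjusted p from 0.054 to 0.21), and HGF without PCDH 2, C269S 2 or C269S 3 (adjusted p from 0.072 to 0.18).

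**Figure D3:**
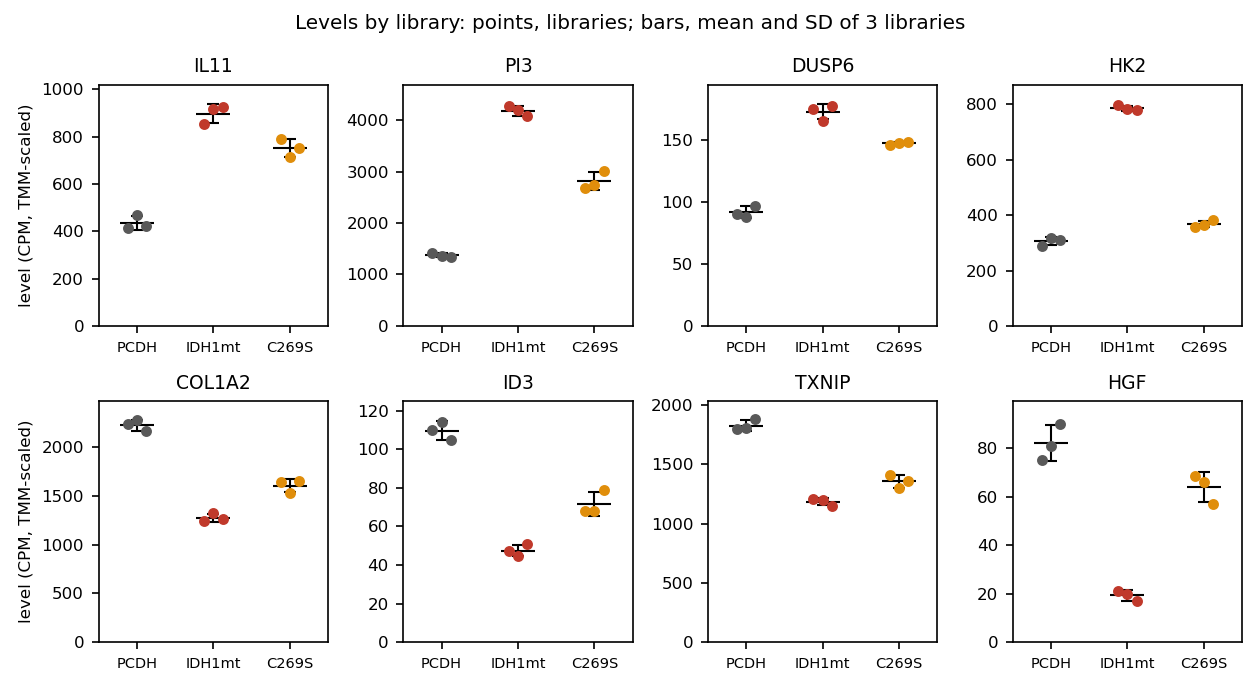
TMM-scaled CPM in each library (points) with mean and SD of 3 libraries (bars) for 8 genes in the PCDH, IDH1mt and C269S groups; vertical axes start at 0. IL11, PI3, DUSP6 and HK2 were higher and COL1A2, ID3, TXNIP and HGF lower in all 6 mutant libraries than in the PCDH libraries.

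Receptors and enzymes of kinin, coagulation and hyaluronan biology were also among the shared rises, as a grouping made after the values were seen. BDKRB2 and BDKRB1 encode the constitutive and the inducible receptor of bradykinin and its fragments, and they neighbour each other on chromosome 14. BDKRB2 stood at 59.6, 54.0 and 54.5 CPM in PCDH, 129, 136 and 129 in IDH1mt, and 87.5, 82.4 and 94.0 in C269S, and rose 1.92-fold (log2 fold change 0.94, SE 0.06, adjusted p = 1e-12). BDKRB1 stood at 97.2, 88.4 and 86.2 CPM in PCDH, 177, 181 and 178 in IDH1mt, and 110.4, 107 and 110.5 in C269S, and rose 1.97-fold in IDH1mt and 1.21-fold in C269S, with a log2 difference between the mutants of -0.71, 95% interval -0.83 to -0.59. F3, tissue factor, which starts coagulation, stood at 443, 483 and 491 CPM in PCDH, 1115, 1094 and 1053 in IDH1mt, and 665, 643 and 655 in C269S, and rose 1.78-fold (log2 fold change 0.84, SE 0.04, adjusted p = 2.7e-14). For these 3 genes the C269S libraries lay between the vector and the IDH1mt libraries. TGM2, tissue transglutaminase, which cross-links matrix proteins, stood at 933, 949 and 948 CPM in PCDH, 1179.6, 1230.3 and 1268 in IDH1mt, and 1286, 1214 and 1276 in C269S, a small rise of like size in the mutants, 1.30-fold in IDH1mt and 1.33-fold in C269S. HAS1, a hyaluronan synthase, stood at 378, 434 and 354 CPM in PCDH, 567, 577 and 625 in IDH1mt, and 560.4, 517 and 609.5 in C269S, and rose 1.48-fold (adjusted p = 2.1e-07). CEMIP, which degrades hyaluronan, rose 1.5-fold (adjusted p = 3.4e-10), and CD44, the hyaluronan receptor, 1.20-fold (adjusted p = 2.3e-05). BDKRB1 lost its shared call without PCDH 2, C269S 1 or C269S 2 (adjusted p from 0.056 to 0.11), and CD44 without PCDH 1, PCDH 2, C269S 1 or C269S 2 (adjusted p from 0.074 to 0.11), while BDKRB2, F3, TGM2, HAS1 and CEMIP kept theirs without each single library.

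Of 24 integrins and laminins tested, 7 rose (4 without PCDH 1) and 4 fell in the mean (background 4.75% and 4.09%). In both mutants 4 were higher and 1 lower (background 0.693% and 0.391%), with 3 lower without PCDH 3. ITGA2, the alpha chain of a collagen receptor, stood at 208, 214 and 249 CPM in PCDH, 431, 467 and 461 in IDH1mt, and 293, 321 and 275 in C269S, and rose 1.64-fold (log2 fold change 0.71, SE 0.06, adjusted p = 3.7e-10). ITGA11, the alpha chain of another collagen receptor, rose 1.78-fold (adjusted p = 2.2e-07). The laminin chains LAMB3 and LAMA5, found in basement membranes of epithelia, rose 1.5-fold and 1.38-fold (adjusted p = 4.8e-10 and 1.9e-06). LAMA4, a laminin chain of vessel and muscle basement membranes, stood at 44.6, 44.9 and 48.1 CPM in PCDH, 24.2, 25.1 and 24.9 in IDH1mt, and 37.1, 30.7 and 32.8 in C269S, and fell 1.59-fold (log2 fold change -0.67, SE 0.07, adjusted p = 6.1e-08). LAMA5 lost its shared call without PCDH 1 or C269S 3 (adjusted p from 0.056 to 0.072).

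Nearly all collagens that were called fell, although most of the list was not called. Of 23 collagen genes tested, 7 fell and 1 rose in the mean (background 4.09% and 4.75%), while 15 did not pass and the list median was 0.01. In both mutants 6 were lower and 1 higher (background 0.391% and 0.693%). COL1A2, a chain of type I collagen (ENSG00000164692, chr7:94394561-94431232), stood at 2226, 2269 and 2158 CPM in PCDH, 1244, 1322 and 1257 in IDH1mt, and 1635, 1522 and 1647 in C269S. The IDH1mt libraries were lowest, and the groups did not overlap. COL1A2 fell 1.55-fold (log2 fold change -0.63, SE 0.04, adjusted p = 1.1e-12), 1.74-fold in IDH1mt and 1.38-fold in C269S. COL1A1, the other chain of type I collagen, stood at 1366, 1288 and 1265 CPM in PCDH, 859, 912 and 904 in IDH1mt, and 974, 979.5 and 1087 in C269S, and fell 1.37-fold (log2 fold change -0.46, SE 0.05, adjusted p = 9.6e-09). COL11A1, a minor fibrillar collagen that nucleates fibrils, stood at 18.2, 17.5 and 14 CPM in PCDH, 6.56, 7.33 and 5.15 in IDH1mt, and 7.81, 8.61 and 9.05 in C269S, and fell 2.25-fold (log2 fold change -1.17, SE 0.12, adjusted p = 1.9e-08). The log2 difference between the mutants was 0.41, 95% interval 0.10 to 0.72, and was not called after adjustment over all genes (adjusted p = 0.13).

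The microfibrillar collagens COL6A1 and COL6A2, neighbours on chromosome 21, fell 1.32-fold and 1.27-fold, and COL8A1, a network-forming collagen, 1.36-fold (adjusted p of the mean 1.8e-07, 1.5e-06 and 7.1e-07). COL15A1, a basement membrane collagen whose C-terminal fragment limits angiogenesis, ran the other way, at 69.9, 73.6 and 68.4 CPM in PCDH, 91.5, 92.7 and 93.3 in IDH1mt, and 86.9, 89.7 and 95.7 in C269S, and rose 1.31-fold in IDH1mt and 1.29-fold in C269S. The shared call was lost for COL6A1 without PCDH 2, C269S 1 or C269S 2 (adjusted p from 0.12 to 0.16), for COL6A2 without PCDH 1, PCDH 2, IDH1mt 1, IDH1mt 2, IDH1mt 3, C269S 1 or C269S 2 (adjusted p from 0.073 to 0.34), and for COL8A1 without PCDH 2, C269S 1 or C269S 3 (adjusted p from 0.062 to 0.14), so that 3 collagens were lower in both without PCDH 2 or without C269S 1. Of the 9 tested markers of fibroblasts and mesenchymal cells, 2 of which are COL1A1 and COL1A2, 5 fell in the mean (COL1A1, COL1A2, FAP, DCN and ACTA2) and none rose. Their summed level was 3710 to 3880 CPM in the vector libraries and 2350 to 3030 CPM in the mutant libraries, most of it from COL1A1 and COL1A2. The other 7 tested members summed to 286.3 to 288.0 CPM in PCDH, 245.8 to 256.1 in IDH1mt and 269.4 to 297.9 in C269S, so that C269S overlapped the vector libraries there. FAP lay between 13.3 and 33.7 CPM. The part of other cells in this result was not tested, and fewer cells of a kind and less RNA per cell cannot be told apart in bulk libraries.

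Enzymes that process collagen were among the shared falls. LOX, which oxidises lysines so that collagen fibres cross-link, stood at 678, 684 and 798 CPM in PCDH, 578, 546 and 555 in IDH1mt, and 566, 563 and 518 in C269S. It fell 1.30-fold (log2 fold change -0.38, SE 0.05, adjusted p = 2.8e-06), by like amounts in the mutants, 1.29-fold in IDH1mt and 1.31-fold in C269S. LOXL1, a lysyl oxidase of elastic fibres, stood at 393, 412 and 401 CPM in PCDH, 212, 227 and 222 in IDH1mt, and 328, 302 and 367 in C269S, and fell 1.49-fold (adjusted p = 1.3e-09). LOXL3, of the same family, fell 1.21-fold (adjusted p = 0.0006). ADAMTS2, which cleaves the N-terminal propeptide of procollagen, stood at 15.5, 18.7 and 15.9 CPM in PCDH, 8.50, 6.92 and 6.32 in IDH1mt, and 12.7, 11.2 and 9.83 in C269S, and fell 1.85-fold (adjusted p = 1.7e-06). Genes outside the lists, picked after their values were seen, were SERPINH1, the collagen chaperone HSP47, at 1.29-fold lower, and the prolyl 3-hydroxylase family member P3H3, at a log2 fold change of -0.32 (adjusted p = 6.8e-06 and 0.00026).

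Of 32 matrix enzymes and glycoproteins, 11 fell and 6 rose in the mean (background 4.09% and 4.75%). In both mutants 6 were lower and 1 higher (background 0.391% and 0.693%). Besides LOX, LOXL1, LOXL3 and ADAMTS2, the lower ones were ADAMTS1, a protease of proteoglycans that fell 1.49-fold (adjusted p = 2.7e-09), and SPP1, osteopontin. SPP1 stood at 128, 126 and 139 CPM in PCDH, 80.2, 80.8 and 78.7 in IDH1mt, and 92.7, 105 and 98.2 in C269S, and fell 1.48-fold (log2 fold change -0.56, SE 0.06, adjusted p = 9e-09). FN1, fibronectin, was the member that rose in both, at 10213, 10542 and 11329 CPM in PCDH, 11536, 13119 and 12771 in IDH1mt, and 14525, 14855 and 14435 in C269S. It rose 1.17-fold in IDH1mt and 1.37-fold in C269S, and in this gene IDH1mt was the nearer to PCDH. The count lower in both was 2 without PCDH 2, 3 without C269S 1 and 2 without C269S 2, and the count higher in both was 3 without PCDH 3, 2 without C269S 3 and 0 with library size alone. Shared calls were lost for LOXL1 without PCDH 2, C269S 1 or C269S 2 (adjusted p from 0.086 to 0.22), for LOXL3 without PCDH 1, PCDH 2, IDH1mt 1, IDH1mt 2, IDH1mt 3, C269S 1 or C269S 2 (adjusted p from 0.063 to 0.29), for ADAMTS2 without PCDH 2, C269S 2 or C269S 3 (adjusted p from 0.11 to 0.2), for ADAMTS1 without PCDH 2, C269S 1, C269S 2 or C269S 3 (adjusted p from 0.085 to 0.12), for FN1 without PCDH 1, PCDH 2, IDH1mt 2 or IDH1mt 3 (adjusted p from 0.082 to 0.18), for SERPINH1 without PCDH 1, PCDH 2, IDH1mt 3, C269S 1 or C269S 2 (adjusted p from 0.051 to 0.23), and for P3H3 without PCDH 1, PCDH 2, IDH1mt 3, C269S 1 or C269S 2 (adjusted p from 0.06 to 0.14). LOX and SPP1 kept theirs without each single library.

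ID proteins bind basic helix-loop-helix factors and keep them off DNA, and BMP signals through SMAD1 and SMAD5 induce them. ID3 (ENSG00000117318, chr1:23557918-23559794) stood at 109.7, 114 and 105 CPM in PCDH, 47.1, 44.8 and 50.8 in IDH1mt, and 68.0, 67.9 and 78.8 in C269S. The IDH1mt libraries were lowest and the C269S libraries lay between. ID3 fell 1.88-fold (log2 fold change -0.91, SE 0.06, adjusted p = 2e-12), 2.31-fold in IDH1mt and 1.53-fold in C269S. It was the only one of 25 BMP signalling and ID genes called in both mutants. In the mean 2 fell and none rose (3 rose without PCDH 3). At unadjusted p under 0.05, 5 were higher and 2 lower in edgeR, and DESeq2 and limma-voom each called none higher, while the list median was 0.11. The other gene that fell in the mean was ID4, with log2 fold changes of -1.33 in IDH1mt and -0.52 in C269S.

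In TGF-beta signalling, 7 of 20 genes rose and 4 fell in the mean (background 4.75% and 4.09%). In both mutants 3 were higher and 1 lower (background 0.693% and 0.391%). INHBA, the activin A subunit, stood at 26.5, 29.8 and 33.7 CPM in PCDH, 50.2, 46.4 and 54.5 in IDH1mt, and 43.7, 46.3 and 39.2 in C269S, and rose 1.55-fold (adjusted p = 1.6e-06). The receptors TGFBR1 and TGFBR2 rose 1.42-fold and 1.32-fold (adjusted p = 3.4e-06 and 1.4e-05). TGFBI, a secreted matrix protein named for its induction by TGF-beta, was abundant, at 7029, 6525 and 6893 CPM in PCDH, 5911, 6024 and 5919.9 in IDH1mt, and 5724, 5698 and 6088 in C269S, and fell 1.16-fold (adjusted p = 0.0005). The calls of TGFBR1 were lost without PCDH 1, PCDH 2, C269S 1 or C269S 2 (adjusted p from 0.091 to 0.13), those of TGFBR2 without PCDH 1, C269S 1 or C269S 2 (adjusted p from 0.054 to 0.11), and those of TGFBI without PCDH 1, IDH1mt 1, IDH1mt 2, IDH1mt 3, C269S 1 or C269S 2 (adjusted p from 0.076 to 0.19). The count higher in both was 1 without PCDH 1, C269S 1 or C269S 2, and 5 without PCDH 3, where 2 were lower.

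Hypoxia response genes set the mutants apart. Hypoxia-inducible factors activate them when prolyl hydroxylases, which use 2-oxoglutarate, are slowed. Of 32 tested, 17 rose and 2 fell in the mean (background 4.75% and 4.09%). But only 4 were higher and 1 lower in both mutants (background 0.693% and 0.391%), and the mutants differed in 26 of 32 (background 4.90%). The list median was 0.58 in IDH1mt and 0.00 in C269S. In the fit of the mutant libraries as 1 group none of the list was called higher. The 4 members higher in both were ANGPTL4, SLC2A1, HK2 and BHLHE40, and the lower one was LOX.

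ANGPTL4, an inhibitor of lipoprotein lipase (ENSG00000167772, chr19:8363289-8374373), stood at 13.1, 11 and 10.0 CPM in PCDH, 74.9, 66.5 and 69.6 in IDH1mt, and 17.5, 18.7 and 24.9 in C269S. The C269S libraries were above PCDH but far below IDH1mt, and the rises were 6.2-fold in IDH1mt and 1.80-fold in C269S. SLC2A1, the glucose transporter GLUT1, stood at 92.5, 101 and 94.3 CPM in PCDH, 368, 360.3 and 344 in IDH1mt, and 109, 111 and 129 in C269S, with rises of 3.73-fold in IDH1mt and 1.21-fold in C269S (adjusted p of the shared call 0.022). Its C269S libraries lay just above the vector libraries. HK2, hexokinase 2, which phosphorylates glucose at the start of glycolysis, stood at 290.2, 319 and 311 CPM in PCDH, 797, 782 and 779 in IDH1mt, and 358, 366 and 382 in C269S, with rises of 2.56-fold in IDH1mt and 1.20-fold in C269S (adjusted p of the shared call 0.0048). BHLHE40, a helix-loop-helix repressor that also acts in the circadian clock, stood at 329, 345 and 340.5 CPM in PCDH, 581, 583 and 585 in IDH1mt, and 411, 384 and 421 in C269S, with rises of 1.72-fold in IDH1mt and 1.20-fold in C269S (adjusted p of the shared call 0.0049). For each of these 4 genes the difference between the mutants was called. SLC2A1 lost its shared call without PCDH 1 or C269S 3 (adjusted p from 0.13 to 0.14), and HK2 without PCDH 1 (adjusted p = 0.064), which left 2 list members higher in both without PCDH 1. Without PCDH 3, 2 were lower in both. HILPDA, a hypoxia-induced protein of lipid droplets, was called in the mean but not in both, with log2 fold changes of 2.57 in IDH1mt and 0.08 in C269S.

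The promoters of HK2, BHLHE40, IL11 and ID3 are printed as examples of windows searched for short motifs. Each is the 250 bases before the RefSeq start of the gene on GRCh38.p14, written 5′ to 3′ along the gene, with matches in capitals. The motifs searched on both strands were ACGTG and GCGTG (the core of hypoxia response elements, read as CACGT and CACGC on the other strand), TGANTCA (the AP-1 site) and GGCGCC (a SMAD1 and SMAD5 palindrome).
HK2 (chr2:74833877-74834126, plus strand): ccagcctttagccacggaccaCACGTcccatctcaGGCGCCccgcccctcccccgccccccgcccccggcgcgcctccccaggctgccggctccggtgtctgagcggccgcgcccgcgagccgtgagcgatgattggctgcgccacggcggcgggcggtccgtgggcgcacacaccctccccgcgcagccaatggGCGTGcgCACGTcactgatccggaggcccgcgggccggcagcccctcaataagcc
BHLHE40 (chr3:4979187-4979436, plus strand): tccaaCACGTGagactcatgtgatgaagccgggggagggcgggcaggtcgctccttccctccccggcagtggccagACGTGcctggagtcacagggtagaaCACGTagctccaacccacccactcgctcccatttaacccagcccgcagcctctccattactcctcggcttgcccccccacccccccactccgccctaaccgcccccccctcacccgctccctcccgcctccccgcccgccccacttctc
IL11 (chr19:55370464-55370713, minus strand): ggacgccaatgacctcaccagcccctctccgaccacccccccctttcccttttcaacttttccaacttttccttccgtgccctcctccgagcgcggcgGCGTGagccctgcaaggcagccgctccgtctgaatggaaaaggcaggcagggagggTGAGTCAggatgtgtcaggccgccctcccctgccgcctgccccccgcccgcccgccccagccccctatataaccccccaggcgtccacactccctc
ID3 (chr1:23559502-23559751, minus strand): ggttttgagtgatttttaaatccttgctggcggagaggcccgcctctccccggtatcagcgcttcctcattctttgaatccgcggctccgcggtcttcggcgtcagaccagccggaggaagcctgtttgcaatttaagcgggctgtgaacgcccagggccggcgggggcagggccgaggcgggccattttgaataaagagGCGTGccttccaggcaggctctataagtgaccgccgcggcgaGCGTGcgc

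The HK2 window held 3 matches of the hypoxia element core and 1 of GGCGCC, and the BHLHE40 window 4 matches of the core, of which 2 overlap in CACGTG. These had the most matches among the 4 hypoxia genes higher in both mutants. The ANGPTL4 window held 1 match and the SLC2A1 window none, so the printed windows do not stand for the others. The IL11 window held 1 AP-1 match, 96 bases before the start, and 1 match of GCGTG. The ID3 window held 2 matches of GCGTG and none of GGCGCC. These letters are common: a hypoxia element core was in 43.1% of all 27305 RefSeq windows and in 56.5% of the 11119 windows matched to genes tested. It was in 35 of 87 matched windows of genes higher in both mutants (40.2%) and in 21 of 46 of genes lower in both (45.7%). The AP-1 motif was in 6.60% of all windows, in 4.45% of those matched to genes tested, in 8 of the 87 (9.20%) and in 5 of the 46 (10.9%). A match is a description of the sequence only.

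Glycolysis and lactate export genes gave 5 rises and 4 falls in the mean among 21 tested (background 4.75% and 4.09%), with a median of -0.04. Those higher in both mutants (background 0.693%) were HK2 and SLC2A1, and TPI1, triose phosphate isomerase, was lower in both (background 0.391%). TPI1 stood at 1110.2, 1102 and 1091 CPM in PCDH, 970.0, 917 and 947 in IDH1mt, and 843, 897 and 957 in C269S, and fell 1.19-fold (adjusted p = 0.00015). It lost the shared call without PCDH 1, PCDH 2, IDH1mt 1, IDH1mt 2, IDH1mt 3 or C269S 2 (adjusted p from 0.054 to 0.16). The count higher in both was 0 without PCDH 1, 4 without PCDH 3 (where 3 were lower) and 1 without C269S 3, and 1 gene fell in the mean without PCDH 1. Of 15 tested mitochondrial genome transcripts, 8 rose in the mean (background 4.75%). MT-ND1, a subunit of respiratory complex I, was higher in both (background 0.693%), at 917, 854 and 1028 CPM in PCDH, 1245, 1213 and 1255 in IDH1mt, and 1101, 1039 and 1169 in C269S. It rose 1.33-fold in IDH1mt and 1.18-fold in C269S and lost the shared call without PCDH 1, PCDH 2, IDH1mt 1, IDH1mt 3, C269S 1 or C269S 3 (adjusted p from 0.057 to 0.26), while 4 of these transcripts were higher in both without PCDH 3.

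In the family of IDH and 2-hydroxyglutarate enzymes, 3 of 12 genes rose in the mean and none fell (background 4.75% and 4.09%). In both mutants 2 were higher (background 0.693%), IDH1 among them, and 1 without PCDH 1, C269S 1 or C269S 2. IDH2, the mitochondrial enzyme, had log2 fold changes of 0.30 in IDH1mt and 0.13 in C269S and was called in the mean alone (adjusted p = 0.0098). None of the 35 tested members of a list of dioxygenases that use 2-oxoglutarate was called in both mutants by edgeR, DESeq2 or limma-voom, and 3 were higher and 2 lower at unadjusted p under 0.05 in both comparisons. In the mean 5 rose (3 without PCDH 1, 9 without PCDH 3) and 1 fell (4 without PCDH 3), among them KDM3A, a histone demethylase, with log2 fold changes of 0.76 in IDH1mt and 0.22 in C269S. The list does not hold every such enzyme. P3H3, given above, and P4HTM, both of prolyl hydroxylase families and outside the list, were called in both mutants. P4HTM kept its shared call in only 2 of the 9 fits with 1 library left out (adjusted p up to 0.38).

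Lipid genes changed little in common. Of 26 genes of cholesterol synthesis and uptake, 4 rose and 1 fell in the mean (2 fell without PCDH 3), and 2 were higher in both mutants. SQLE, squalene epoxidase, stood at 97.8, 104 and 112 CPM in PCDH, 158, 164 and 157 in IDH1mt, and 136, 145 and 131 in C269S, and rose 1.42-fold (log2 fold change 0.50, SE 0.05, adjusted p = 1.1e-07). The count higher in both was 1 without C269S 2 or C269S 3, and SQLE kept its shared call without each single library. Of 21 genes of fatty acid synthesis and desaturation, 6 rose in the mean and none was called in both (6 higher at unadjusted p under 0.05 and none in DESeq2 or limma-voom), though 4 were higher in both without PCDH 3. Of 20 lipid droplet and glycerolipid genes, 3 rose and 1 fell in the mean and none was called in both by those 3 tools (1 higher at unadjusted p under 0.05).

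Palmitoyltransferases and depalmitoylases, the enzymes that add and remove palmitate, showed no shared call. Of 29 tested, none was called in the mean or in both mutants by edgeR, the median was 0.00, and log2 fold changes ran from -0.23 to 0.23. In the mean 3 were higher and 2 lower at unadjusted p under 0.05, DESeq2 called 1 in each direction and limma-voom none, and no gene was at unadjusted p under 0.05 in both comparisons. Without PCDH 3, 2 rose in the mean, and with library size alone 1 fell.

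Stress-linked genes gave few shared calls. TXNIP, an arrestin-like protein that binds thioredoxin and limits glucose uptake (ENSG00000265972, chr1:145992435-145996600), stood at 1797, 1803 and 1883 CPM in PCDH, 1205, 1204 and 1152 in IDH1mt, and 1408, 1304 and 1357 in C269S. The 6 mutant libraries were all below the vector libraries. TXNIP fell 1.44-fold (log2 fold change -0.53, SE 0.04, adjusted p = 7e-11), 1.54-fold in IDH1mt and 1.35-fold in C269S. Its relative ARRDC4 fell 1.26-fold (adjusted p = 0.0002), and its shared call was lost whichever library was left out (adjusted p from 0.065 to 0.19). They were the 2 of 16 FOXO and stress-linked mTOR inhibitor genes lower in both, where 3 rose and 4 fell in the mean. NRF2 targets gave 4 rises and 3 falls in the mean among 22 tested (background 4.75% and 4.09%). HMOX1, heme oxygenase, and AKR1C1, an aldo-keto reductase, were higher in both (background 0.693%), 1.53-fold and 1.22-fold in the mean. HMOX1 lost its call without PCDH 1, PCDH 2, IDH1mt 3, C269S 1 or C269S 3 (adjusted p from 0.051 to 0.16), and AKR1C1 without PCDH 2 or C269S 1 (adjusted p from 0.062 to 0.075), and without PCDH 1 none of the list fell in the mean, while 1 fell without PCDH 2, IDH1mt 2, C269S 1 or C269S 2. Without PCDH 2 or C269S 1 no NRF2 target was higher in both, without PCDH 1, IDH1mt 3 or C269S 3 it was 1, and without PCDH 3 or C269S 3 there was 1 lower in both.

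Of 23 ATF4 amino acid response genes, 4 fell in the mean (2 without PCDH 1 or C269S 2, and 1 without PCDH 2). Of 18 genes of the unfolded protein response, 2 rose (1 without PCDH 1 or PCDH 2, and 5 without PCDH 3). None of either list was called in both mutants by the 3 tools, with 2 lower and 3 higher at unadjusted p under 0.05. Without PCDH 3, 4 unfolded protein response genes were higher and 1 ATF4 gene was lower in both, and in the mean 2 unfolded protein response genes fell and 1 ATF4 gene rose. Without C269S 3, 1 unfolded protein response gene was higher in both.

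Cell division genes gave no shared call with all libraries. Of 43 DNA replication genes, 7 fell in the mean and none was called in both (5 lower at unadjusted p under 0.05, none in DESeq2 or limma-voom), with medians of -0.16 in IDH1mt and -0.02 in C269S. Without C269S 3, 1 of them was lower in both and 1 rose in the mean, and without PCDH 3 there was also 1 that rose. Of 32 mitosis genes none was called in the mean or in both by the 3 tools (3 lower in the mean and 1 lower in both at unadjusted p under 0.05), although in the mean 4 rose without PCDH 3, 1 fell without PCDH 2 and 2 fell with library size alone. Of 20 p53 targets 2 fell in the mean (without PCDH 3, 4 fell and 1 rose) and none was called in both (2 higher and 2 lower at unadjusted p under 0.05).

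The interferon and MHC lists gave no shared calls by edgeR, DESeq2 or limma-voom. Of 27 interferon-stimulated genes, 4 fell in the mean (1 without PCDH 1, 2 without PCDH 2) with a median of -0.09, and 4 were lower in both at unadjusted p under 0.05 (2 were called lower in both without PCDH 3). Of 22 genes of MHC class I, class II and peptide loading, 7 rose and 6 fell in the mean (background 4.75% and 4.09%), with 3 falls without PCDH 1, PCDH 2 or IDH1mt 3. At unadjusted p under 0.05, 5 were higher and 2 lower in both, and 15 were called different between the mutants (background 4.90%). Of 16 glioma stem and progenitor factors, 7 rose in the mean (4 without PCDH 1, background 4.75%). CD24, CD44 and NOTCH2, a Notch receptor, were higher in both (1 without PCDH 1, PCDH 2 or C269S 2, background 0.693%). NOTCH2 rose 1.21-fold in IDH1mt and 1.21-fold in C269S and lost its shared call without PCDH 1, PCDH 2, IDH1mt 2, IDH1mt 3, C269S 2 or C269S 3 (adjusted p from 0.05 to 0.22). Of 19 circadian clock genes, 6 fell and 1 rose in the mean (3 fell without PCDH 1, PCDH 2 or C269S 2, and 2 rose without PCDH 3 or C269S 3) and BHLHE40 was the one called in both.

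**Figure D4:**
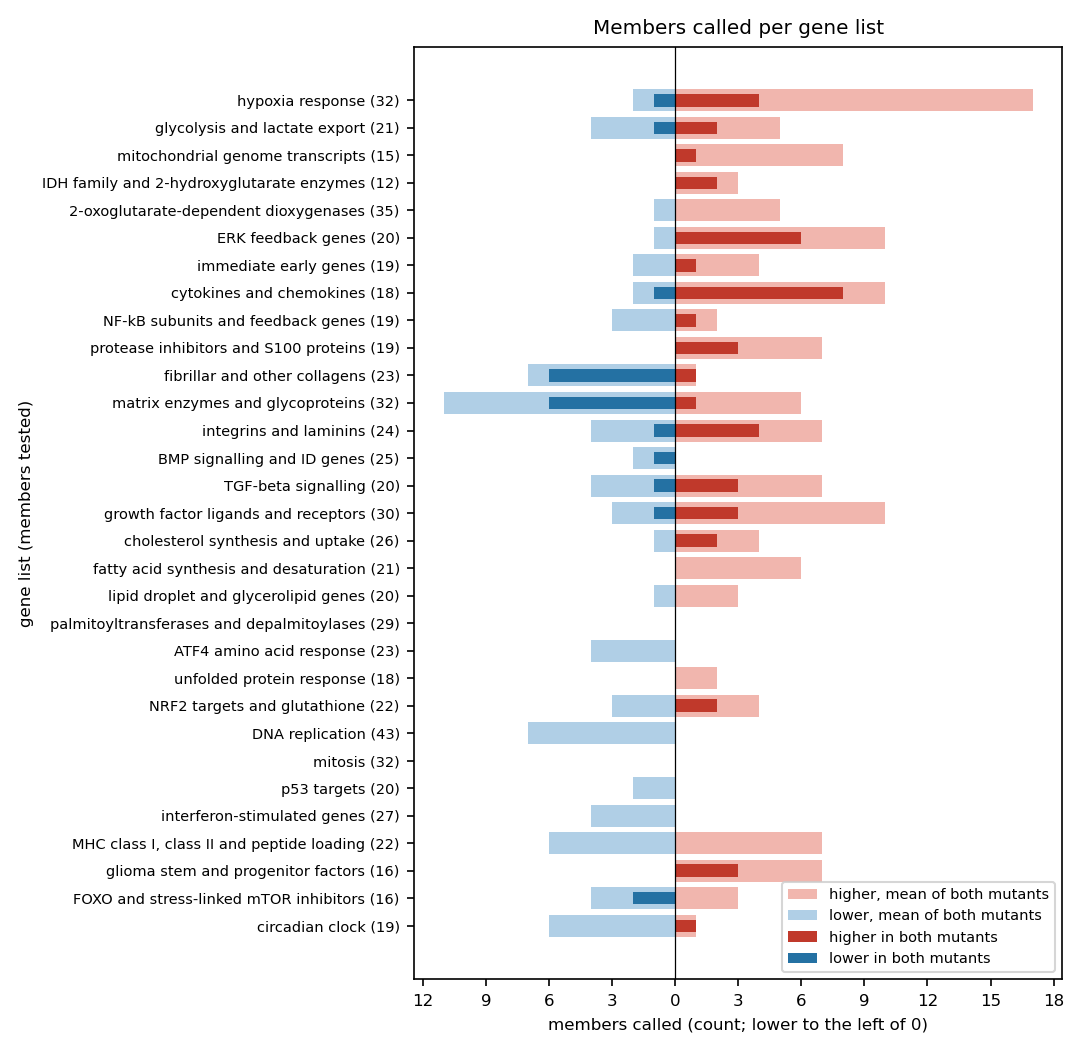
Members called per gene list, higher to the right and lower to the left of 0, in the mean of both mutants (pale bars) and in both mutants (dark bars); numbers in brackets are members tested. The cytokine list has 8 members higher in both and the collagen and matrix lists 6 each lower in both, whereas the hypoxia list has 17 higher in the mean and 4 in both.

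Genes named for their falls outside these lists covered several roles. ADCY8, an adenylyl cyclase stimulated by calcium (ENSG00000155897, chr8:130780301-131042426), stood at 120.0, 116 and 111 CPM in PCDH, 59.0, 53.7 and 58.0 in IDH1mt, and 72.2, 75.5 and 80.2 in C269S, and fell 1.76-fold (log2 fold change -0.82, SE 0.06, adjusted p = 4.1e-12). LCP1, the actin-bundling protein plastin 2, stood at 22.0, 25.2 and 29.6 CPM in PCDH, 13.4, 12.9 and 11 in IDH1mt, and 16.9, 16.7 and 17.3 in C269S, and fell 1.76-fold (log2 fold change -0.82, SE 0.10, adjusted p = 2.7e-07). IL36RN, the antagonist of the interleukin-36 receptor, stood at 58.6, 51.9 and 55.7 CPM in PCDH, 31.3, 27.1 and 31.8 in IDH1mt, and 38.0, 36.9 and 36.7 in C269S, and fell 1.66-fold (log2 fold change -0.73, SE 0.07, adjusted p = 5.1e-09). In these 3 genes the C269S libraries lay between the other groups. KCNE4, a regulatory subunit of potassium channels, stood at 22.5, 25.1 and 26.0 CPM in PCDH, 17.6, 17.3 and 16.8 in IDH1mt, and 15.8, 12.4 and 13.9 in C269S, and fell 1.43-fold in IDH1mt and 1.75-fold in C269S. The larger fall was in C269S, though the difference between the mutants was not called (adjusted p = 0.13). KCTD4, a protein with a tetramerisation domain of potassium channels, fell 1.64-fold (adjusted p = 7.3e-06). That no mutant library overlapped a vector library in these 5 genes was required by the naming rule.

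The other 4 named falls were less stable. VGF, a neuropeptide precursor induced by growth factors, stood at 45.3, 53.5 and 48.5 CPM in PCDH, 25.0, 23.4 and 27.4 in IDH1mt, and 31.1, 32.7 and 42.7 in C269S, and fell 1.64-fold (adjusted p = 7.1e-07). MAPK10, the neuronal JNK kinase, was low, at 8.16, 7.71 and 9.09 CPM in PCDH, 5.72, 3.58 and 4.13 in IDH1mt, and 5.10, 6.03 and 3.95 in C269S, and fell 1.75-fold (adjusted p = 0.00065). PNLIPRP3, of the pancreatic lipase family, fell 1.69-fold, and NAT16, a predicted acetyltransferase, 1.61-fold (adjusted p = 2.6e-05 and 6.2e-06). Shared calls were lost for VGF without PCDH 2, C269S 1 or C269S 2 (adjusted p from 0.11 to 0.15), for MAPK10 without PCDH 1, PCDH 2, PCDH 3, IDH1mt 2, IDH1mt 3, C269S 1 or C269S 3 (adjusted p from 0.057 to 0.25), for PNLIPRP3 without PCDH 1, PCDH 2, C269S 2 or C269S 3 (adjusted p from 0.096 to 0.29), and for NAT16 without PCDH 1, PCDH 2, IDH1mt 1, C269S 1, C269S 2 or C269S 3 (adjusted p from 0.063 to 0.25).

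Whether the size of a shared change differed between the mutant groups was tested directly, with C269S against IDH1mt, a contrast that uses no vector library. The C269S change and the selected line cannot be told apart in it. Of the 183 genes, 83 differed between the mutants (45.4%), beside 827 of all genes (4.90%). These were 54 of the higher and 29 of the lower genes. The members were chosen for a change in both mutants, so the share is a description. In 82 of the 83 the C269S level was the nearer to PCDH, and the exception was FN1. Over all 183 genes C269S was nearer in 165 and IDH1mt in 18. Median log2 fold changes were 0.63 in IDH1mt and 0.36 in C269S for the higher genes, and -0.61 and -0.40 for the lower genes.

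The 8 genes named for the lowest p of this difference were SLC2A1, HK2, ERRFI1, HGF, ANGPTL4, F3, MYH15 and BDKRB1. SLC2A1 had the widest gap relative to its error, with a log2 difference of -1.62, 95% interval -1.75 to -1.49 (adjusted p = 4.1e-18). For ANGPTL4 the log2 difference was -1.79, 95% interval -2.01 to -1.57, for HK2 -1.09, 95% interval -1.20 to -0.99, for F3 -0.73, 95% interval -0.84 to -0.63 and for MYH15 -1.06, 95% interval -1.24 to -0.88. Each of these intervals lies beyond 0.32 in size.

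For 70 of the 183 genes (38.3%) the 95% interval of the difference lay wholly within 0.32 either way on the log2 scale, 48 of them higher and 22 lower, beside 6370 of all genes (37.8%). These genes changed in both mutants by amounts that agree within that bound, but the share was close to that of all genes. It is therefore not particular to the shared changes. The bound is also close in size to the median log2 fold changes in C269S, 0.36 for the higher and -0.40 for the lower genes. Agreement within it can leave a sizeable difference between small changes. For 34 genes the interval was too wide to place, and 4 of the 83 that differed lay within the bound as well. Among those with the largest changes were IDH1, DAW1, HAS1, TXNIP, DUSP5, KLF2 and FAM200B. HAS1 had a difference of -0.07, 95% interval -0.21 to 0.07, DUSP5 -0.11, 95% interval -0.25 to 0.04 and TXNIP 0.19, 95% interval 0.09 to 0.29. DAW1, an assembly factor of ciliary dynein arms, rose 1.51-fold and lost its shared call without PCDH 3, IDH1mt 3, C269S 1 or C269S 2 (adjusted p from 0.051 to 0.12). FAM200B, a transposase-derived gene, fell 1.38-fold and lost its shared call without PCDH 1, PCDH 2, IDH1mt 1, IDH1mt 2, C269S 1, C269S 2 or C269S 3 (adjusted p from 0.081 to 0.27).

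**Figure D5:**
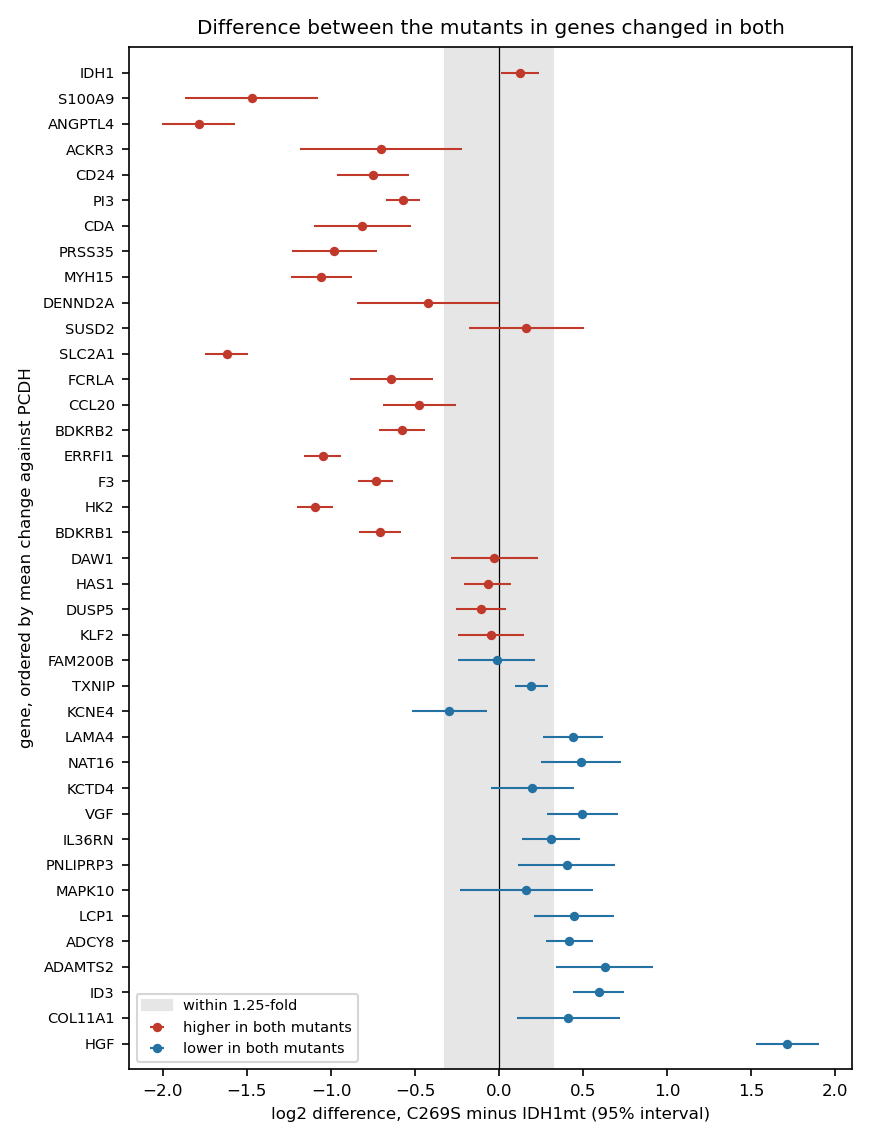
Log2 difference C269S minus IDH1mt (points) with its 95% interval (lines) for the genes named in the comparison, ordered by their mean change against PCDH, with genes higher in both mutants in red and lower in blue; the grey band marks differences within 0.32 either way. Most red points lie left of 0 and most blue points right of 0, which is the side nearer to PCDH, and intervals of genes such as HAS1, DUSP5, KLF2 and TXNIP lie inside the band.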

How the data were processed

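The 9 libraries were grouped by their GEO titles, and the deposited columns named Control, mt and CS were read as PCDH, IDH1mt and C269S by name. Read counts per gene were made by the authors with HISAT2 2.0.5 and featureCounts 1.5.0-p3 on GRCh38, and FPKM values were deposited beside them, per the submitters' processing notes. Counts were tested with edgeR 4.0.16 (R 4.3.3): TMM scaling, the package's filter on low counts by group, 1 mean per group, a robust quasi-likelihood fit with 6 residual degrees of freedom, and Benjamini-Hochberg adjustment over 16874 genes. The mean of both mutants, each mutant against PCDH, and C269S against IDH1mt are contrasts of that fit. Intervals are 95% Wald intervals. Every adjusted p in the text comes from this fit unless DESeq2 1.42.0 or limma 3.58.1 is named. The fit was tested on simulated data.

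Genes were named by rule: IDH1, the 14 largest rises and 14 largest falls among protein-coding genes called in both mutants whose mutant and vector libraries did not overlap and whose average log2 CPM reached 1, up to 4 called members per list, the 8 with the lowest p between mutants, and the 8 largest within the similarity bound. Other genes were chosen after their values were seen. The members and the 38 gene lists were chosen with earlier results of these data known. Promoters are RefSeq sequences of GRCh38.p14, matched by symbol. Alternatives tried were other scalings, filters, tools, thresholds, a replicate block and each library left out. Some genes that these rules name are not reported here.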

Additional observations from a re-analysis of the deposited data

Results flagged for a closer look

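Of the genes named in the text, 64 differed between the mutants by the edgeR test of C269S against IDH1mt, which is what singled them out. In 63 of them the C269S level was the nearer to PCDH, the exception being FN1. Adjusted p reached at most 0.046 among them. No explanation of these differences was tested. Among genes higher in both mutants the difference was mostly negative, so that C269S was lower than IDH1mt. The log2 difference was -1.79 for ANGPTL4, -1.62 for SLC2A1, -1.47 for S100A9, -1.09 for HK2, -1.06 for MYH15 and -1.05 for ERRFI1. Next in order of size it was -0.98 for PRSS35, -0.81 for CDA, -0.75 for CD24, -0.73 for F3, -0.71 for BDKRB1 and -0.71 for TGFA. It was then -0.66 for HMOX1, -0.64 for FCRLA, -0.61 for ITGA2, -0.60 for PDGFRA, -0.58 for BDKRB2 and -0.57 for PI3. Further down it was -0.52 for BHLHE40, -0.52 for FGF2, -0.51 for ITGA11, -0.47 for CCL20, -0.40 for LAMB3 and -0.40 for IL6. After these it was -0.39 for HS3ST3B1, -0.32 for LAMA5, -0.32 for TGFBR1, -0.26 for CSGALNACT1 and -0.26 for PODXL. Among the smaller gaps it was -0.26 for CEMIP, -0.25 for IL11, -0.23 for DUSP6, -0.22 for CXCL3 and -0.22 for SQLE. At the small end it was -0.19 for TFPI2, -0.19 for EPAS1 and 0.23 for FN1.

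Among genes lower in both mutants C269S was mostly the higher. The difference there was 1.72 for HGF, 0.65 for AL118508.1, 0.63 for ADAMTS2, 0.62 for ADAMTS1, 0.59 for LOXL1 and 0.59 for ID3. In falling order it went on with 0.56 for CXCL1, 0.49 for VGF, 0.49 for NAT16, 0.45 for LCP1, 0.44 for LAMA4 and 0.42 for ADCY8. Lower values were 0.40 for AC099552.1, 0.33 for COL1A2, 0.32 for COL8A1, 0.32 for COL6A1, 0.31 for IL36RN and 0.30 for SPP1. The remaining ones were 0.28 for COL6A2, 0.28 for HMGA2, 0.22 for SERPINH1, 0.19 for TXNIP and 0.19 for COL1A1.

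Genes called in the mean but not in both mutants differed as well. Their log2 difference was -2.49 for HILPDA, -0.53 for KDM3A, 0.58 for FAP and 0.81 for ID4.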

How the results depend on the processing

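IDH1 and the mitochondrial share kept their side of the threshold under every alternative run. For the mitochondrial share this was fixed in advance where a PCDH library was left out. The permutation test then has too few assignments to give p under 0.05. No single gene named here reversed, but the balance of calls in the mean did: it was 801 higher and 690 lower with TMM, and 632 higher and 1039 lower with library size alone. Of 3640 values of single genes under the alternatives, 2434 kept the shared call and 1206 lost it, and 3 genes kept it under every alternative. Counts of calls moved more. In the mean, higher and lower calls were 371 and 251 with the mutant libraries fitted as 1 group, 519 and 388 with limma on log2(FPKM + 1), 515 and 367 with log2(FPKM + 0.1), 458 and 336 at adjusted p under 0.01, and 27 and 7 in a test against a 1.5-fold change. With 1 library left out, 504 to 1218 were higher and 380 to 1062 lower, the extremes being without PCDH 1 and without PCDH 3. In both mutants, 117 genes were higher and 66 lower. These were 36 and 15 with log2(FPKM + 1), 38 and 14 with log2(FPKM + 0.1), 53 and 25 at adjusted p under 0.01, and 3 and 1 against 1.5-fold. With 1 library left out, 58 (without C269S 1) to 338 were higher and 28 (without PCDH 2) to 198 lower, the highest being without PCDH 3. Of the shared genes 83 differed between the mutants, beside 30 and 32 with the FPKM fits, 40 at adjusted p under 0.01, 0 against 1.5-fold, and 44 (without C269S 1) to 152 (without PCDH 3) with 1 library left out. The cause of these moves was not tested.

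Same-numbered libraries did not deviate together (correlations from -0.087 to 0.056, and 2 of 9 libraries correlated best with their own number), so the numbers were not taken as pairs. A fit with a replicate block called 118 genes in both mutants, 117 of them among the 183, with 38 lower, and 1138 genes in the mean. DESeq2 called 236 genes in both mutants, with all 183 among them, and limma-voom 175. The median SE of a log2 fold change was 0.10, and leaving out 1 library of a group rests on a spread shared over the other groups.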

Other observations

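Enzymes that build and modify glycosaminoglycans, a grouping made after the values were seen, were higher in both mutants in 4 genes. HS3ST3B1, a heparan sulfate sulfotransferase, stood at 55.6, 57.5 and 62.5 CPM in PCDH, 117, 115 and 119.5 in IDH1mt, and 88.5, 94.9 and 85.8 in C269S, and rose 1.75-fold (adjusted p = 1.9e-11). CSGALNACT1, which starts chondroitin chains, rose 1.40-fold, GLCE, an epimerase of heparan sulfate, 1.34-fold, and CHST11, a chondroitin sulfotransferase, 1.23-fold. HS3ST3B1 kept its shared call without each single library. The calls were lost for CSGALNACT1 without PCDH 1, PCDH 2, C269S 1 or C269S 2 (adjusted p from 0.064 to 0.18), for GLCE without PCDH 1, PCDH 2, C269S 1 or C269S 2 (adjusted p from 0.06 to 0.17), and for CHST11 without PCDH 1, PCDH 2, C269S 1 or C269S 2 (adjusted p from 0.056 to 0.072).

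Of 1048 transcription factors tested, 11 were called in both mutants, a share close to the background of 1.08%. Besides BHLHE40 and KLF2, EPAS1, the hypoxia-inducible factor HIF-2 alpha, was higher, at 505, 479 and 498 CPM in PCDH, 645, 652 and 682 in IDH1mt, and 590.3, 568 and 573 in C269S. It rose 1.33-fold in IDH1mt and 1.17-fold in C269S and lost its call without PCDH 2, C269S 1 or C269S 2 (adjusted p from 0.06 to 0.12). HMGA2, a chromatin protein of embryonic and tumour cells, was lower, at 374, 368 and 351 CPM in PCDH, 247, 248 and 241 in IDH1mt, and 317, 288 and 289 in C269S, and fell 1.35-fold (adjusted p = 6.8e-08), a call kept without each single library. TWIST1, a factor of mesenchymal differentiation, fell 1.49-fold and CEBPD, a factor of the acute phase response, 1.36-fold. The calls were lost for TWIST1 without PCDH 2, C269S 1 or C269S 2 (adjusted p from 0.084 to 0.15), and for CEBPD without PCDH 1, PCDH 2, IDH1mt 1, IDH1mt 2, IDH1mt 3, C269S 1 or C269S 2 (adjusted p from 0.074 to 0.26).

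Long intergenic noncoding RNAs gave 5 shared calls among 887 tested (0.564%), a smaller share than the 1.08% of all genes. AL118508.1 (ENSG00000230387, chr20:23187961-23190307) stood at 14.7, 14.7 and 10.5 CPM in PCDH, 2.99, 4.08 and 3.06 in IDH1mt, and 4.64, 5.42 and 5.83 in C269S. All mutant libraries were far below all vector libraries, and it fell 3.91-fold in IDH1mt and 2.5-fold in C269S. AC099552.1 stood at 52.9, 56.5 and 57.4 CPM in PCDH, 33.2, 31.7 and 28.8 in IDH1mt, and 41.1, 43.4 and 39.0 in C269S, and fell 1.55-fold (adjusted p = 5.8e-08). Both kept their shared calls without each single library. FLJ22447, which rose 2.96-fold, was the gene whose mutant and vector libraries overlapped, at 0.737, 1.77 and 1.15 CPM in PCDH, 4.50, 5.56 and 4.23 in IDH1mt, and 3.78, 2.94 and 1.75 in C269S, and it lost its call without PCDH 1, IDH1mt 1, IDH1mt 2, IDH1mt 3, C269S 1 or C269S 2 (adjusted p from 0.069 to 0.41).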
